A study of Mus musculus with 18 samples.

Results

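The expression of 9 cell adhesion molecule genes, *Vcam1*, *Icam1*, *Cd44*, *Cd109*, *Alcam*, *Ncam1*, *Nrcam*, *L1cam* and *Cdh2*, was followed while mouse neural stem cells differentiated into astrocytes under normal and inflammatory conditions. The genes were taken by name, from a list drawn up with earlier results of these data known. All 9 were found among the 54838 genes of the count table, and 8 of them were among the 20067 genes that passed the filter on low counts. *Icam1* did not pass it. RNA-sequencing covered 18 libraries in 6 conditions, with 3 replicates in each. All cells descended from stem cells of the ventricular zone of wild type C57BL/6J embryos at day 14. Proliferating neurospheres (NSPs, free-floating aggregates of stem cells) were kept with EGF at 20 ng/ml and without serum. The other cells were differentiated on coated plates in 10% fetal bovine serum, in 5 conditions: 24 h, 72 h and 1 week of untreated culture, and 24 h and 72 h of culture to which TNF had been added at 50 ng/ml. NSPs therefore differed from all other conditions in medium, EGF, serum and attachment as well as in time, and these cannot be told apart. The labels number the replicates of a condition 1 to 3 but do not say that they were separate cultures or animals. The study's methods state that cells were isolated from single brains and, for its data in general, that experiments were independent biological ones, but not which libraries came from which brain. The p-values below measure the spread between these libraries, which may in part be technical.

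Cell adhesion molecules hold cells to each other and to the matrix, and most of them also carry signals into the cell. *Vcam1* and *Icam1* encode immunoglobulin family receptors that bind integrins of leukocytes and are textbook targets of NF-κB, the transcription factor that TNF activates. In the brain, astrocytes and vessel walls can carry both during inflammation. *Cd44* encodes the main receptor for hyaluronan. The neural members *Ncam1*, *Nrcam* and *L1cam* guide axons and join cells during development, and *Cdh2* encodes N-cadherin, which forms the junctions between neural stem cells and between astrocytes.

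Total counts ranged from 12509693 to 22549627 per library, with a median of 16794798. The study's methods report a wide range of RNA quality numbers, but not which library had which. The libraries numbered 1 in both TNF conditions stood apart from replicates 2 and 3, with mitochondrial genes taking 6.24% of the counts at 24 h and 8.01% at 72 h, against 1.60% to 5.02% in the other 16 libraries. NSP replicate 1 stood apart from the other NSP libraries too. Where leaving out such a library ended or gave a call of a member, the value without it is given, and the 2 TNF libraries were also left out together, an alternative chosen after their values were seen. Genes that are not members were fitted with all libraries only. *Nfkbia*, the NF-κB inhibitor gene that NF-κB itself induces, checked the treatment. It was at 24.1, 30.4 and 27.9 CPM at 24 h without TNF and at 151, 135 and 161 CPM with TNF. Of the 5 NF-κB target genes looked at, 5 were called higher with TNF at 24 h and 4 at 72 h, beside 2.18% and 4.35% of all tested genes. Of the 10 astrocyte markers looked at, none was under 1 CPM in all libraries, and their summed level was 5418 to 5817 CPM in NSPs, 6020 to 8446 CPM at 72 h, 3712 to 5238 CPM at 72 h with TNF and 2942 to 3428 CPM at 1 week. From 72 h to 1 week 6 of the 10 were called lower (3.96% of all tested genes), and 2 and 3 were called lower with TNF at 24 h and 72 h (3.5% and 9.56% of all tested genes in either direction). Oligodendrocyte lineage markers summed to 1061 to 1367 CPM in NSPs and to 82.4 to 91.7 CPM at 72 h. In each of the 5 comparisons with NSPs, 5 to 7 of the 7 tested were called lower, beside 25.5% to 30.1% of all tested genes. The 7 neural stem cell markers summed to 6324 to 8007 CPM in NSPs and to 3536 to 4520 CPM at 1 week. The part of these shifts in the members' changes was not tested. Endothelial markers summed to 3.02 to 7.79 CPM, with *Cdh5* at a single count in all libraries together. Microglia and macrophage markers summed to 3.27 to 17.95 CPM, with *Itgam* also at a single count and the highest sum in a 24 h TNF library. Fibroblast and mural cell markers summed to 4.49 to 11.1 CPM in NSPs, 403 to 496 CPM at 24 h, 198 to 294 CPM at 72 h and 326 to 410 CPM at 1 week. With TNF the sums were 97.3 to 532 CPM at 24 h and 54.5 to 205 CPM at 72 h. The highest was nearly all *Acta2*, while 5 of these 8 markers stayed under 1 CPM in every library. Of the 3 tested, 2 or 3 were called higher than in NSPs in each of the 5 comparisons, beside 27.2% to 31.7% of all tested genes. The part of this shift in the members' changes was not tested either. In bulk cultures, fewer cells of a type and less RNA per cell cannot be told apart.

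Levels are given as CPM, the counts of a gene relative to its library's total, scaled by TMM to a common library size by edgeR, in the order of replicates 1, 2 and 3. Changes are log2 fold changes with their standard error (SE) from edgeR's quasi-likelihood test, fitted over all 18 libraries. A gene is called changed where its Benjamini-Hochberg adjusted p over the 20067 genes was under 0.05. Against NSPs, between 3 and 7 of the 8 tested members were called, in comparisons that called over 50% of all tested genes. At 24 h without TNF, 4 members were called higher, where 27.2% of all tested genes were, and 2 lower, where 25.5% were (52.7% in either direction). At 72 h, 3 were called higher (28.1% of all tested genes) and 3 lower (27.2%, 55.3% in either direction). At 1 week, 1 was called higher (29.6%) and 2 lower (29.1%, 58.6% in either direction). After 24 h with TNF, 5 members had risen (28.2%) and 2 had fallen (26.3%, 54.5% in either direction). After 72 h with TNF these numbers were again 5 (31.7%) and 2 (30.1%, 61.9% in either direction). These 5 comparisons share the same 3 NSP libraries. With 8 genes and backgrounds this high, nothing is read from these counts, and each gene's own values follow below.

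The effect of TNF was read between cells of the same time. At 24 h, 1 of the 8 tested members, *Vcam1*, was called, as higher, beside 2.18% of all tested genes called higher and 3.5% in either direction. At 72 h, *Vcam1* and *Cd109* were called, both higher, beside 4.35% of all tested genes called higher and 9.56% in either direction. These counts moved with the setting, between 1 and 3 members at 24 h and between 1 and 5 at 72 h. DESeq2 called *Vcam1*, *Cd109* and *Ncam1* at 24 h. Without both TNF libraries numbered 1, edgeR called 5 of the 8 at 72 h, with *Vcam1*, *Cd109* and *L1cam* higher and *Cd44* and *Ncam1* lower, and 1 at 24 h. The TNF libraries did not overlap the untreated ones for 4 of the 8 members at 24 h, as for 20.8% of all tested genes, and for 3 of 8 at 72 h, as for 26.2% of all tested genes. The median log2 fold change of the 8 tested members was 0.13 at 24 h and 0.08 at 72 h, against -0.01 over all tested genes at both times. No member was called for the interaction of TNF and time by edgeR, in which 0.458% of all tested genes were called, and none had an unadjusted p under 0.05 there. DESeq2 called none either.

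*Vcam1* (ENSMUSG00000027962, chr3:116109949-116129688 on the reverse strand of GRCm38, as annotated in GENCODE M21) had the largest response to TNF of the members. At 24 h it was at 26.3, 30.6 and 27.5 CPM without TNF and at 313, 284 and 259 CPM with it. At 72 h the values were 33.6, 35.9 and 42.5 CPM without TNF and 178, 328 and 281 CPM with it. Every TNF library lay above every untreated one at both times, and 72 h TNF replicate 1 was the lowest of its group. The log2 fold change was 3.34 ± 0.23 (SE, n = 3 against 3, edgeR adjusted p = 4.94e-08) at 24 h, a 10.1-fold higher level. It was 2.81 ± 0.22 (edgeR adjusted p = 2.95e-07) at 72 h, a 7.02-fold higher level. The difference between these 2 effects was -0.53 with a 95% interval of -1.15 to 0.09, and did not pass the test (edgeR adjusted p = 0.569). Without the libraries numbered 1 of both TNF groups, the change was 3.27, edgeR adjusted p = 1.35e-08, at 24 h and 3.02, edgeR adjusted p = 1.99e-08, at 72 h.

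Without TNF, *Vcam1* fell during differentiation. NSPs held 69.4, 127 and 129 CPM, and cells at 1 week 14.4, 13.5 and 13.7 CPM. The 6 conditions ordered as 1 week, 24 h, 72 h, NSPs and then both TNF conditions, and no neighbours in this order overlapped except the TNF conditions with each other. Compared to NSPs, *Vcam1* fell by 1.94 on the log2 scale at 24 h (edgeR adjusted p = 9.04e-07), by 1.54 at 72 h (adjusted p = 7.44e-06) and by 2.96 at 1 week (adjusted p = 3.07e-09). From 72 h to 1 week it fell by 1.43 (edgeR adjusted p = 5.30e-04), in a comparison in which 3.96% of all tested genes were called lower, 2.68% higher and 6.63% in either direction. The step from 24 h to 72 h, 0.41 with a 95% interval of -0.04 to 0.86, did not pass the test (edgeR adjusted p = 0.183). With TNF the gene stood above its NSP level, by 1.40 ± 0.21 at 24 h (edgeR adjusted p = 2.49e-05) and by 1.28 ± 0.21 at 72 h (adjusted p = 4.25e-05). NSP replicate 1 was the lowest of the NSP libraries, and without it all 5 changes from NSPs kept their direction and their call. The antisense gene *Gm43109* shares 61 exon bases with *Vcam1* and held 0 to 12 counts.

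**Figure D1:**
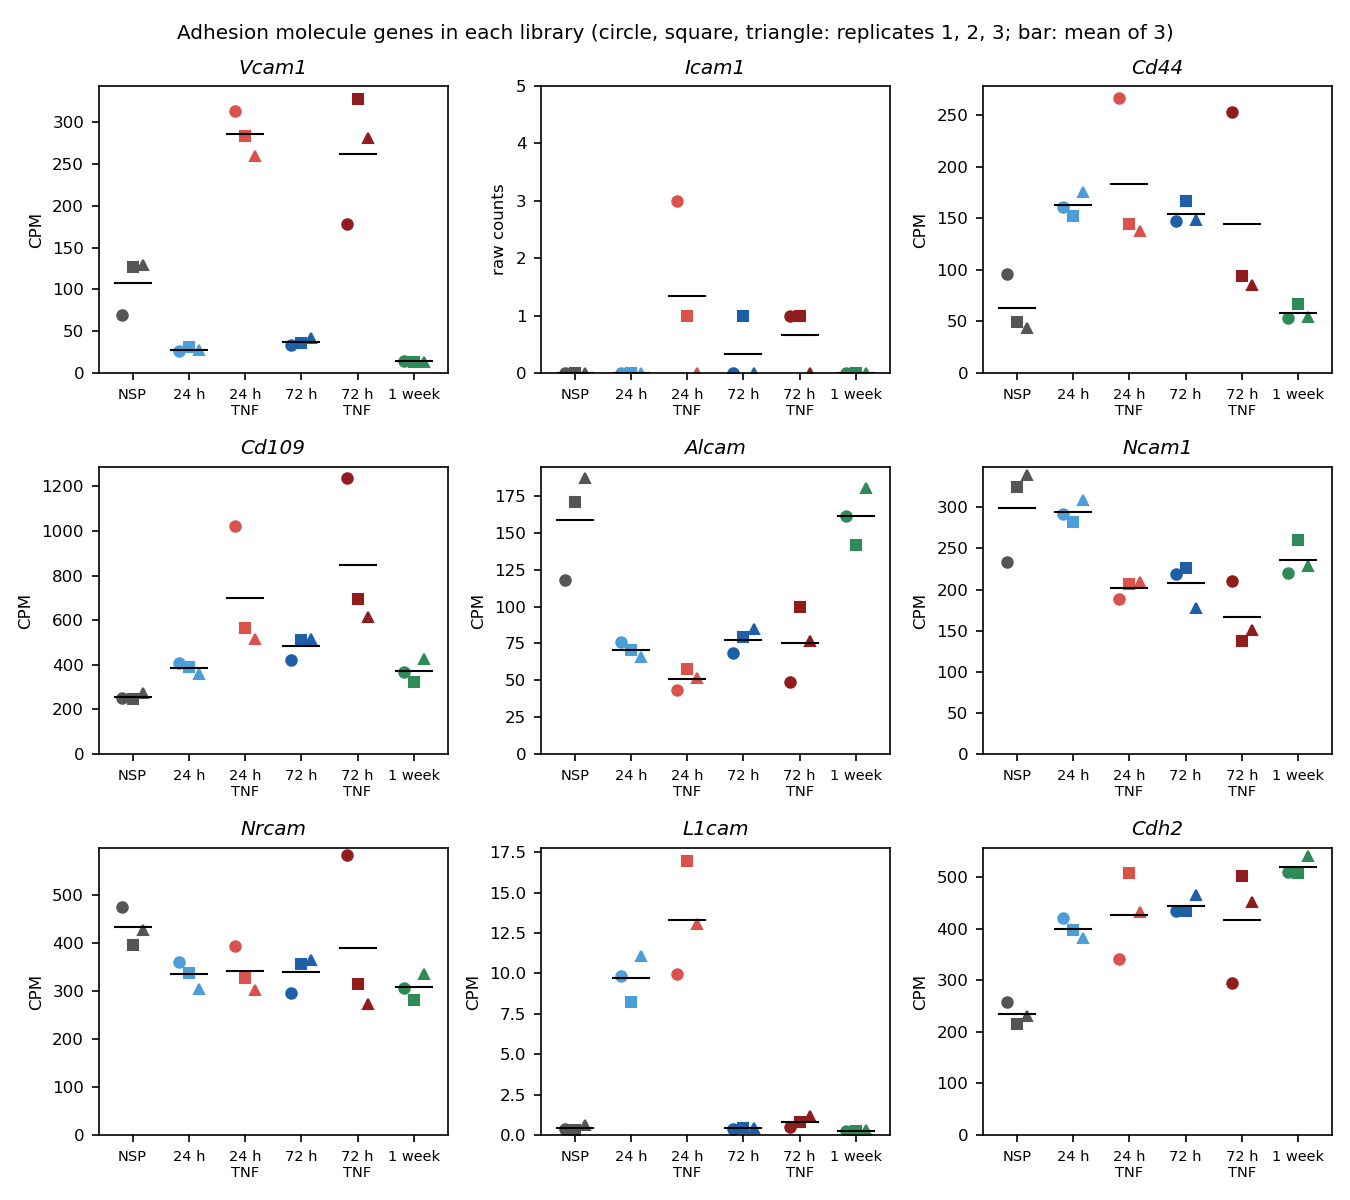
Level of each of the 9 genes in each of the 18 libraries, in CPM on a linear axis from 0 (raw counts for *Icam1*), by condition. Circles, squares and triangles are replicates 1, 2 and 3, and bars are means of 3. *Vcam1* is highest in the 6 TNF libraries, *L1cam* is above 8 CPM in the 24 h libraries with or without TNF and under 1.2 CPM elsewhere, and the circle stands apart from the other TNF libraries for *Cd44* and *Cd109*.

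*Icam1* (ENSMUSG00000037405, chr9:21015985-21028817 on the forward strand), the other leukocyte receptor, had almost no counts. It was at 0 counts in 13 of the 18 libraries and held 7 counts in all. The 24 h TNF libraries held 3, 1 and 0 counts, the 72 h TNF libraries 1, 1 and 0, and the only other count was 1 in 72 h replicate 2. The highest value was thus the 3 counts in 24 h TNF replicate 1, which equals the floor of 3 counts used here, between 0.132 and 0.244 CPM depending on the library. Every condition was at or under this floor, so no fold change or test of *Icam1* is given. It entered the fits without a filter or with a minimum of 5 counts in total, which called it in none of the comparisons. Such counts are at the limit of detection at this depth, and the limit covers counting error only. The gene's neighbours on chromosome 9 gave mixed values. *Mrpl4*, a mitochondrial ribosomal protein gene, was at 20.7 to 51.3 CPM, *Icam5* at 0.290 to 1.29 CPM and *Icam4* at 0 counts in every library. The antisense gene *Gm47079* shares 511 exon bases with *Icam1* and held 0 to 2 counts.

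The start of *Icam1* is shown because, of the members' promoters that could be searched, it is the only one with the word GGAAATTCC, a form of the site NF-κB binds. The sequence is 99 bases of the RefSeq promoter window, chr9:21015742-21015840 on the forward strand of GRCm38.p6, upstream of the gene's first exon, with the word in capitals. The word begins 153 bases before the gene start in RefSeq.
*Icam1* promoter: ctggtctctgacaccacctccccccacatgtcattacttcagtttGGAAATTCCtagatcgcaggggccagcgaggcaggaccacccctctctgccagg
Windows of 300 bases were found for 5 of the 9 members, *Icam1*, *Cd44*, *Nrcam*, *Alcam* and *L1cam*, 6 windows in all. The word, searched on both strands, was in 1 of these and in 104 of all 32851 promoter windows (0.317%). The longer κB consensus was in 0 of the 6 windows and in 11.2% of all windows. These are matches of letters and not measured binding sites.

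Among the receptors for matrix and growth factors, *Cd44* (ENSMUSG00000005087, chr2:102811141-102901665, reverse strand) rose early in differentiation and lay within its NSP range at 1 week. NSPs held 96.0, 49.8 and 43.6 CPM. Untreated cells held 161, 152 and 176 CPM at 24 h, 148, 167 and 149 CPM at 72 h and 53.5, 66.9 and 54.0 CPM at 1 week. All 24 h and 72 h libraries lay above all NSP libraries, of which replicate 1 was the highest, while the 1 week libraries lay within the NSP range. Compared to NSPs the change was 1.37 ± 0.35 at 24 h (edgeR adjusted p = 0.00326) and 1.29 ± 0.35 at 72 h (adjusted p = 0.0042). At 1 week it was -0.12 with a 95% interval of -0.85 to 0.61 (adjusted p = 0.791). The fall from 72 h to 1 week was 1.41 on the log2 scale, with an edgeR adjusted p of 0.0191. That call was lost without 72 h replicate 2 (-1.35, edgeR adjusted p = 0.072), without 1 week replicate 1 (-1.35, edgeR adjusted p = 0.0813) and without 1 week replicate 3 (-1.36, edgeR adjusted p = 0.0804).

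The response of *Cd44* to TNF split by library. In the TNF libraries it was at 267, 145 and 137 CPM at 24 h and at 253, 94.6 and 85.3 CPM at 72 h. Replicate 1 was above every untreated library of its time, at 1.64 times the untreated mean on both occasions. Replicates 2 and 3 were at 0.89 and 0.84 times that mean at 24 h and at 0.61 and 0.55 times at 72 h. Over all libraries the change was 0.17 ± 0.34 at 24 h, with a 95% interval of -0.55 to 0.89 (edgeR adjusted p = 0.9), and -0.10 ± 0.34 at 72 h, with an interval of -0.82 to 0.62 (adjusted p = 0.89). Without both libraries numbered 1 it was -0.21, edgeR adjusted p = 0.775, at 24 h and -0.79, edgeR adjusted p = 0.0404, at 72 h, so that the 72 h change then passed the test as a fall. Against NSPs, *Cd44* was higher with TNF at 24 h (1.54 ± 0.35, edgeR adjusted p = 0.0013). The same comparison at 72 h gave 1.20 ± 0.35 (edgeR adjusted p = 0.00641), with 0.56, edgeR adjusted p = 0.091, without 72 h TNF replicate 1 and 0.52, edgeR adjusted p = 0.0584, without both. The mitochondrial share was also highest in the TNF libraries numbered 1. At 24 h other genes set replicate 1 apart too, some higher and some lower there. *Gfap*, the astrocyte filament gene, was at 1871, 463 and 596 CPM and *Gja1*, a gap junction gene of astrocytes, at 329.9, 54.7 and 56.2 CPM in the 24 h TNF libraries. *Acta2*, smooth muscle actin, was at 90.3, 527 and 493 CPM and *Fabp7*, a gene of radial glia, at 606, 2025 and 1736 CPM. The 10 astrocyte markers summed to 5052 to 6468 CPM in these libraries. Those other than *Gfap* and *Gja1* were together not higher in replicate 1. Of the 8 microglia and macrophage markers, *Cd68* was highest in replicate 1, at 15.3, 4.55 and 4.78 CPM, *P2ry12* was lowest there, at 1.26, 2.54 and 2.12 CPM, and 5 stayed under 1 CPM in every library. Of the 3 tested, 1 was called higher and 0 lower with TNF at 24 h, beside 2.18% of all tested genes called higher. Compared to NSPs, 2 of the 3 were called higher at 24 h with TNF, beside 28.2% of all tested genes. The part of any of these in the *Cd44* values was not tested.

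*Cd109* (ENSMUSG00000046186, chr9:78615546-78716253, forward strand) encodes a membrane-anchored protein that binds TGF-β with its receptors. It was lowest in NSPs and highest with TNF. NSPs held 252, 248 and 274 CPM, and untreated cells 409, 391 and 357 CPM at 24 h, 421, 509 and 517 CPM at 72 h and 367, 323 and 426 CPM at 1 week. With TNF it was at 1023, 566 and 517 CPM at 24 h and 1238, 696 and 614 CPM at 72 h. Every TNF library was above every untreated library of its time, and replicate 1 was the highest both times, with replicates 2 and 3 between it and the untreated libraries. At 72 h the change with TNF was 0.82 ± 0.24 (edgeR adjusted p = 0.0388). At 24 h it was 0.86 ± 0.24 with a 95% interval of 0.36 to 1.37, and missed the threshold (edgeR adjusted p = 0.0555), while DESeq2 gave it an adjusted p of 0.0179. The 24 h change was called without 24 h TNF replicate 2 (0.99, edgeR adjusted p = 0.0497) or replicate 3 (1.04, edgeR adjusted p = 0.0257), whereas without replicate 1 it was 0.47, edgeR adjusted p = 0.371.

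The 72 h call of *Cd109* did not hold when single libraries were left out. It was lost without 72 h TNF replicate 1 (0.45, edgeR adjusted p = 0.254) and without any of the 3 untreated 72 h libraries (edgeR adjusted p = 0.0819, 0.102 and 0.092). Without both TNF libraries numbered 1 it was 0.43, edgeR adjusted p = 0.0494, and the 24 h change 0.48, edgeR adjusted p = 0.0515. Compared to NSPs, the changes with TNF were 1.44 ± 0.24 at 24 h (edgeR adjusted p = 8.30e-05) and 1.72 ± 0.25 at 72 h (adjusted p = 9.46e-06), and both calls held without each library in turn. Untreated, the change from NSPs was 0.90 ± 0.24 at 72 h (edgeR adjusted p = 0.00381). The 24 h value of 0.58 ± 0.24 lay at the threshold (edgeR adjusted p = 0.0497) and was not called when any 1 of the 6 libraries was left out or with DESeq2 (adjusted p = 0.0533). At 1 week it was 0.53 ± 0.24 and was not called (edgeR adjusted p = 0.0663).

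**Figure D2:**
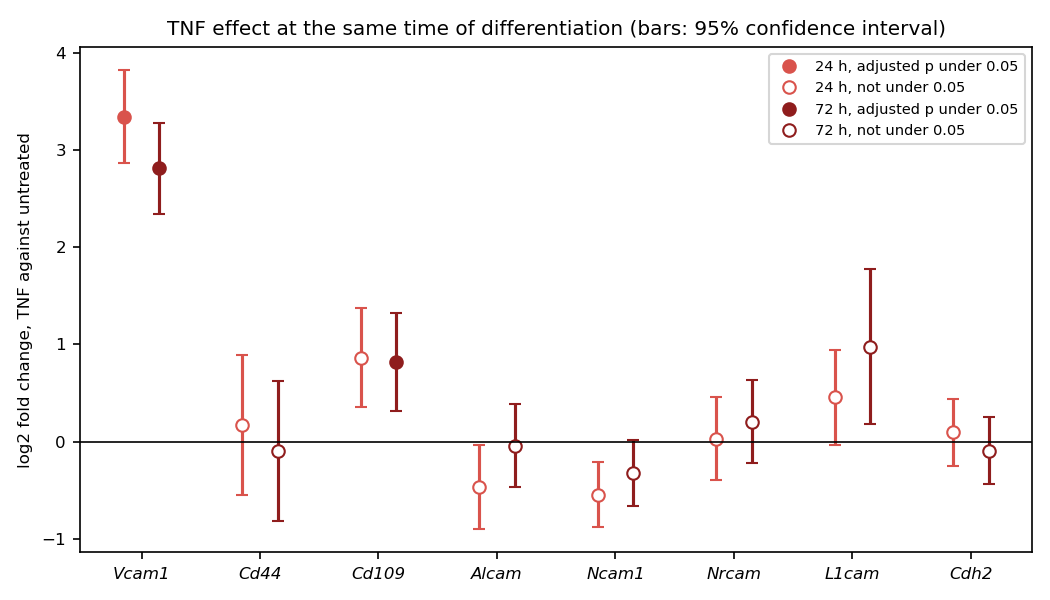
Log2 fold change of TNF against untreated cells of the same time for the 8 tested members, with 95% confidence intervals as bars (light red for 24 h, dark red for 72 h, filled where the edgeR adjusted p was under 0.05). *Vcam1* stands apart at 3.34 and 2.81, *Cd109* lies at 0.86 and 0.82, and the intervals of *Cd44*, *Nrcam* and *Cdh2* include 0 at both times.

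**Figure D3:**
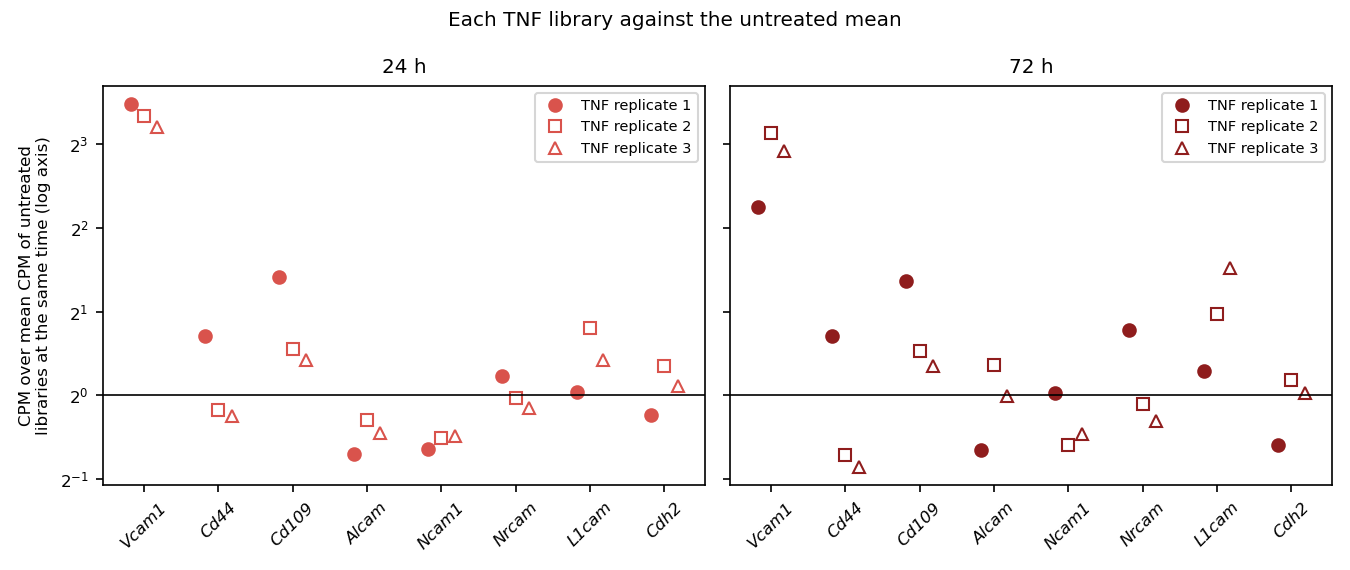
CPM of each TNF library over the mean CPM of the 3 untreated libraries of the same time, on a log axis to base 2, for the 8 tested members. Filled circles are replicate 1, open squares replicate 2 and open triangles replicate 3. The circle lies on the other side of the line at 1 from both other replicates for *Cd44*, *Nrcam* and *Cdh2* at both times.

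*Alcam* and *Cd44* changed in opposite directions from NSPs at 24 h and 72 h and were both near the NSP level at 1 week. *Alcam* (ENSMUSG00000022636, chr16:52248996-52454074, reverse strand) encodes an immunoglobulin family protein that binds itself and CD6 of T cells. It was at 118, 171 and 188 CPM in NSPs and at 161, 142 and 180.4 CPM at 1 week. In between it was lower, at 76.0, 70.3 and 65.7 CPM at 24 h and 68.5, 79.2 and 84.6 CPM at 72 h. TNF libraries held 43.6, 57.8 and 51.7 CPM at 24 h and 49.1, 99.8 and 76.9 CPM at 72 h. No library at 24 h or 72 h, with or without TNF, reached the lowest NSP or 1 week library. Compared to NSPs, *Alcam* fell by 1.17 at 24 h (edgeR adjusted p = 1.36e-04) and by 1.04 at 72 h (adjusted p = 3.06e-04) on the log2 scale. With TNF it fell by 1.64 at 24 h (edgeR adjusted p = 3.91e-06) and by 1.08 at 72 h (adjusted p = 1.90e-04). At 1 week the change was 0.02 with a 95% interval of -0.40 to 0.44, and the rise from 72 h to 1 week was 1.06 ± 0.21 (edgeR adjusted p = 0.00345). That rise held its call without each library in turn.

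The effect of TNF on *Alcam* did not pass the test. It was -0.47 ± 0.21 at 24 h (edgeR adjusted p = 0.305), where all 3 TNF libraries lay under all 3 untreated ones. At 72 h it was -0.04 ± 0.20 (edgeR adjusted p = 0.925), where the groups overlapped and TNF replicate 1 was the lowest. Between the TNF conditions, 72 h against 24 h, the change was 0.56 ± 0.21 (edgeR adjusted p = 0.0822), and it passed the test without 72 h TNF replicate 1 (0.82, edgeR adjusted p = 0.00647). In that comparison *L1cam* was the only member called over all libraries, as lower, beside 7.93% of all tested genes called lower and 13.3% in either direction. *Cd44* passed it too without 72 h TNF replicate 1 (-0.999, edgeR adjusted p = 0.0271), and *Cd109* without 24 h TNF replicate 1 (0.69, edgeR adjusted p = 0.0315). Over all libraries *Cd44* was at -0.34 (edgeR adjusted p = 0.579) and *Cd109* at 0.28 (adjusted p = 0.513). Deviations of same-numbered libraries correlated at 0.255 to 0.291 between these conditions. Leaving out 1 library numbered 1 therefore keeps its related library on the other side only. Without both TNF libraries numbered 1, *Alcam* (0.70, edgeR adjusted p = 0.0165) and *Ncam1* (-0.52, edgeR adjusted p = 0.0344) were called beside *L1cam*.

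*Ncam1* (ENSMUSG00000039542, chr9:49502136-49798925, reverse strand) encodes the neural cell adhesion molecule, which binds itself on neighbouring cells and carries polysialic acid in the young brain. No pair of its condition means differed by more than 1 on the log2 scale. NSPs held 233, 324 and 339 CPM and untreated cells 292, 283 and 308 CPM at 24 h. The level was 219, 226 and 178 CPM at 72 h and 219.9, 261 and 229 CPM at 1 week. With TNF it was 189, 207 and 209 CPM at 24 h and 211, 137 and 150.4 CPM at 72 h. The 24 h TNF libraries lay under all untreated 24 h libraries, whereas at 72 h TNF replicate 1 lay within the untreated range and replicates 2 and 3 under it. The change with TNF was -0.55 ± 0.16 at 24 h (edgeR adjusted p = 0.0728) and -0.32 ± 0.16 at 72 h (adjusted p = 0.219), and neither passed the test. DESeq2 called the 24 h change (-0.55, DESeq2 adjusted p = 0.0307). Without both TNF libraries numbered 1, the 72 h change passed it (-0.54, edgeR adjusted p = 0.031) and the 24 h change did not (-0.51, edgeR adjusted p = 0.0788).

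Compared to NSPs, *Ncam1* was lower at 72 h (-0.53 ± 0.16, edgeR adjusted p = 0.00937), a call lost without NSP replicate 3 (-0.43, edgeR adjusted p = 0.0501). It was also lost with the replicate number as a block and 72 h replicate 3 unpaired (-0.41, edgeR adjusted p = 0.0841) and with only the groups compared in the fit (-0.47, edgeR adjusted p = 0.051). With TNF it was lower at 24 h (-0.57 ± 0.16, edgeR adjusted p = 0.00607) and at 72 h (-0.85 ± 0.16, adjusted p = 1.83e-04). Between NSPs and untreated cells at 24 h the change was -0.02 with a 95% interval of -0.36 to 0.31 (edgeR adjusted p = 0.916). From 24 h to 72 h without TNF it fell by 0.50 (edgeR adjusted p = 0.0269), and 12.6% of all tested genes were called lower in that comparison, 24.8% in either direction. Without 72 h replicate 3 this was -0.40, edgeR adjusted p = 0.128, and leaving out any untreated 24 h library also lost the call, at adjusted p values of 0.0636, 0.0627 and 0.104 by edgeR. At 1 week *Ncam1* was not called against NSPs (-0.34 ± 0.16, edgeR adjusted p = 0.0769), but was without NSP replicate 1 (-0.49, edgeR adjusted p = 0.0115). The antisense gene *Gm11149* shares 417 exon bases with *Ncam1* and held 52 to 113 counts per library. Whether counting used the strand is not given in the sources used here.

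*L1cam* (ENSMUSG00000031391, chrX:73853778-73896105, reverse strand), an axon growth and guidance molecule of young neurons, was above 1.2 CPM at 24 h only. NSPs held 0.381, 0.329 and 0.626 CPM. At 24 h it was at 9.82, 8.22 and 11.1 CPM without TNF and 9.95, 16.9 and 13.03 CPM with it. At 72 h it was at 0.378, 0.429 and 0.440 CPM without TNF and 0.507, 0.812 and 1.19 CPM with it, and at 1 week at 0.221, 0.274 and 0.282 CPM. All 6 libraries at 24 h lay above 8 CPM and the other 12 under 1.2 CPM. The change from NSPs to 24 h was 4.42 ± 0.31 without TNF (edgeR adjusted p = 3.43e-09) and 4.87 ± 0.31 with it (adjusted p = 8.43e-10). From 24 h to 72 h it fell by 4.51 without TNF (edgeR adjusted p = 3.28e-08) and by 3.99 with TNF (adjusted p = 3.27e-07). These 4 calls held without each library in turn. Outside 24 h *L1cam* held 4 to 19 counts per library, so the size of these changes rests on few counts on the lower side. Where at least 10 counts were required in every library, it was not tested. Per kilobase of exon, *L1cam* was at 1.32 CPM per kb at its untreated peak, against 34.0 CPM per kb for *Ncam1* in the same libraries.

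No effect of TNF on *L1cam* passed the test. The difference was 0.46 ± 0.23 at 24 h, with a 95% interval of -0.03 to 0.95 (edgeR adjusted p = 0.416). At 72 h, where every TNF library lay above every untreated one, it was 0.97 ± 0.38 (edgeR adjusted p = 0.118), and without both TNF libraries numbered 1 it was 1.23, edgeR adjusted p = 0.0403. Against NSPs, 72 h with TNF gave 0.88 ± 0.37 at the threshold (edgeR adjusted p = 0.0455), which DESeq2 did not call (0.86, DESeq2 adjusted p = 0.081). By edgeR it was not called without NSP replicate 1 (0.79, edgeR adjusted p = 0.114), NSP replicate 2 (0.69, edgeR adjusted p = 0.161), 72 h TNF replicate 2 (0.90, edgeR adjusted p = 0.0763) or 72 h TNF replicate 3 (0.55, edgeR adjusted p = 0.256). Outside 24 h the counts of *L1cam* were low, and 100 of its exon bases are shared with *Arhgap4* on the same strand, which was at 0.563 to 2.45 CPM. Neuron markers are given beside it. These 8 genes summed to 1622 to 1803 CPM at 24 h and to 1578 to 1631 CPM at 72 h without TNF, most of it *Map2*. *Tubb3*, a tubulin of neurons, was at 12.1, 23.7 and 23.4 CPM in NSPs, 30.6, 41.2 and 31.9 CPM at 24 h and 6.51, 6.69 and 8.25 CPM at 72 h without TNF. *Dcx*, a marker of young neurons, was at 1.46, 7.14 and 7.05 CPM, 4.01, 2.85 and 4.32 CPM and 0.378, 0.798 and 0.715 CPM in the same conditions. From NSPs to 24 h without TNF, where *L1cam* rose, 1 of the 7 tested neuron markers was called higher and 2 lower (27.2% and 25.5% of all tested genes), with a median of -0.35 against 0.06 over all tested genes, and the NSP sum was 1632 to 2102 CPM. From 24 h to 72 h, where *L1cam* fell, 2 of the 7 were called lower without TNF (12.6% of all tested genes), with a median of -0.34 against -0.01. With TNF 4 of 7 were called lower over that step (7.93% of all tested genes), with a median of -1.63 against 0.005. Their part in the *L1cam* values was not tested.

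*Nrcam* (ENSMUSG00000020598, chr12:44328885-44601964, forward strand), an L1 family protein that gathers sodium channels at nodes of Ranvier, had the smallest fold between its highest and lowest condition mean among the 8 tested members. Its mean ranged from 308 ± 27.1 CPM (SD, n = 3) at 1 week to 432 ± 39.9 CPM in NSPs, and the libraries of neighbouring conditions in the order of level overlapped throughout. NSPs held 474, 395 and 427 CPM and cells at 1 week 306, 282 and 336 CPM. Untreated cells held 361, 338 and 304 CPM at 24 h and 296, 356 and 364 CPM at 72 h. The TNF libraries held 393, 328 and 302 CPM at 24 h and 582, 314 and 272 CPM at 72 h, with replicate 1 the highest both times. Neither effect of TNF passed the test, at 0.03 ± 0.20 for 24 h (95% interval -0.40 to 0.45) and 0.20 ± 0.20 for 72 h (95% interval -0.22 to 0.63). Compared to NSPs, the change with TNF was -0.34 ± 0.20 at 24 h (edgeR adjusted p = 0.162) and -0.15 ± 0.20 at 72 h (adjusted p = 0.536), and neither was called. With both TNF libraries numbered 1 left out, *Nrcam* was called lower at 24 h (-0.47, edgeR adjusted p = 0.00855) and at 72 h (-0.56, edgeR adjusted p = 0.00188), and without 72 h TNF replicate 1 alone it was called lower at 72 h (-0.52, edgeR adjusted p = 0.00479). The fall from NSPs to 1 week was 0.49 on the log2 scale (edgeR adjusted p = 0.0461). It lost its call without NSP replicate 1 or 3 and without any 1 week library, and held it without NSP replicate 2, with edgeR adjusted p between 0.0487 and 0.135 and the change between -0.56 and -0.42 over these 6.

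*Cdh2* (ENSMUSG00000024304, chr18:16588877-16809246, reverse strand) was above its NSP level at every time of differentiation. NSPs held 259, 215 and 232 CPM. Untreated cells held 420.5, 398 and 381 CPM at 24 h, 435, 435 and 465 CPM at 72 h and 511, 509 and 541 CPM at 1 week. With TNF the values were 341, 508 and 432 CPM at 24 h and 295, 503 and 452 CPM at 72 h. Every differentiated library lay above every NSP library, and every 1 week library above every other. Compared to NSPs the change was 0.77 ± 0.17 at 24 h (edgeR adjusted p = 8.50e-04), 0.92 ± 0.17 at 72 h (adjusted p = 1.23e-04) and 1.14 ± 0.17 at 1 week (adjusted p = 1.10e-05). With TNF it was 0.86 ± 0.17 at 24 h (edgeR adjusted p = 2.90e-04) and 0.83 ± 0.17 at 72 h (adjusted p = 3.13e-04). All 5 calls held without each library in turn. The later steps were not called. The change was 0.15 from 24 h to 72 h (edgeR adjusted p = 0.549) and 0.22 from 72 h to 1 week (adjusted p = 0.517). Between the TNF conditions, 72 h against 24 h, it was -0.03 (edgeR adjusted p = 0.927). TNF itself gave 0.09 ± 0.16 at 24 h (95% interval -0.25 to 0.44) and -0.10 ± 0.16 at 72 h (95% interval -0.44 to 0.25), neither past the test, with replicate 1 the lowest TNF library both times.

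**Figure D4:**
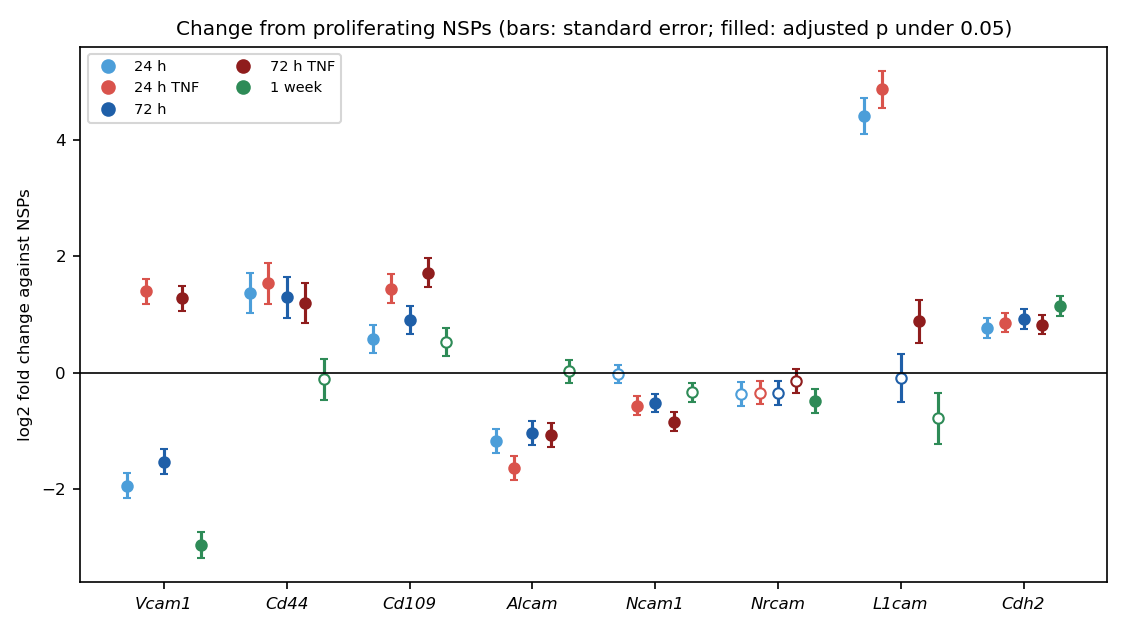
Log2 fold change of each of the 5 differentiated conditions against NSPs for the 8 tested members, with standard errors as bars and filled points where the edgeR adjusted p was under 0.05. *Cdh2* lies above 0 in all 5 conditions, *L1cam* exceeds 4 at 24 h only, and *Alcam* and *Cd44* return to about 0 at 1 week.

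Compared between genes per kilobase of exon, the members had different ranks in different conditions. In NSPs *Cd109* (37.4 CPM per kb), *Ncam1* (34.5) and *Nrcam* (32.4) were highest on this scale, and *Vcam1* was at 12.2. At 72 h with TNF *Cd109* stood at 123 CPM per kb and *Cdh2* at 51.7, and *Vcam1*, at 29.6, was level with *Nrcam* at 29.2. At 1 week *Cdh2* led with 64.5 CPM per kb and *Vcam1* was down to 1.56. Across the 18 libraries, log2 CPM of *Cd44* and *Alcam* had a Pearson r of -0.94, the strongest relation among the 8 tested members. The points are 6 conditions in triplicate, so such values mix differences between condition means with splits between the libraries of a condition. Among the 16451 tested genes with a mean of at least 1 CPM, the closest to *Vcam1* were *Bid* (r = 0.94), *Gad1* (0.93) and *Spidr* (0.92). *L1cam* was closest to *Robo2* (0.98), *Atp8a1* and *Akap6*, *Cdh2* to *Frmd3* (0.97), *Endod1* and *Limch1*, and *Cd109* to *Galnt15* (0.97), *Clip4* and *Aig1*. For *Alcam* they were *Cbs* (0.92), *Gabrg1* and *Zfp410*, and for *Ncam1* *Pitpnc1* (0.93), *Nrxn2* and *Myo10*. *Cd44* was closest to *4930517E11Rik* (0.92), *Capzb* and *Nrip1*, and *Nrcam* to *Pcgf6* (0.86), *Ppp2r2c* and *Ddi2*.

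Of 7 genes for integrins that bind the *Vcam1* and *Icam1* products, 3 passed the filter on low counts. *Itga4*, the subunit that pairs with *Itgb1* to bind *Vcam1*, was at 15.3, 21.6 and 19.6 CPM in NSPs and at 4.01, 2.96 and 3.99 CPM at 24 h, a fall of 2.37 on the log2 scale (edgeR adjusted p = 1.71e-06). At 72 h and 1 week it had fallen by 4.10 and 4.31 (edgeR adjusted p = 3.96e-09 and 1.88e-09). *Itgb1* was at 923, 664 and 660.5 CPM in NSPs and fell by 0.96 at 72 h (edgeR adjusted p = 0.00432). *Itgb7* rose by 1.16 at 72 h (edgeR adjusted p = 0.00447), to 3.10, 3.37 and 2.31 CPM. None of the 3 was called for TNF at either time. The 24 h TNF libraries held 477, 1366 and 1253 CPM of *Itgb1*, with replicate 1 the lowest. *Itgal* stayed under 1 CPM, *Itgam* and *Itgax* held 1 count each in all libraries together, and *Itgb2* reached 2.20 CPM in 24 h TNF replicate 1 and stayed under 1.02 CPM in the others. *Madcam1*, another receptor of integrins that hold *Itga4*, was low, at 0.282, 1.57 and 1.502 CPM with TNF at 72 h against 0.151, 0.184 and 0.275 CPM without it. EdgeR gave a change of 2.37 ± 0.68 (edgeR adjusted p = 0.0328). *Madcam1* held 0 to 5 counts in the NSP and untreated libraries and passed the filter only through TNF libraries, so nothing is read from that test.

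Among 11 hyaluronan and *Cd44* ligand genes, of which 10 were tested, 1 was called higher and 5 lower from NSPs to 24 h, beside 27.2% and 25.5% of all tested genes, with a median of -1.004 against 0.06 over all tested genes. *Hmmr*, another hyaluronan receptor and a mitotic gene, fell from 125, 94.2 and 97.8 CPM in NSPs to 4.91, 5.31 and 3.59 CPM at 24 h (-4.51 ± 0.35, edgeR adjusted p = 8.93e-09). *Vcan*, a proteoglycan that binds hyaluronan, fell by 3.65 at 72 h (edgeR adjusted p = 2.08e-10). With TNF at 24 h, 3 of the 10 were called higher and 0 lower by edgeR, beside 2.18% of all tested genes called higher. *Layn*, a hyaluronan receptor, was at 6.93, 2.16 and 2.30 against 0.831, 0.839 and 0.896 CPM (2.15 ± 0.51, edgeR adjusted p = 0.0203). *Spp1*, the *Cd44* ligand osteopontin, was at 1.45, 5.97 and 4.30 against 0.453, 0.503 and 0.244 CPM (3.22 ± 0.50, edgeR adjusted p = 8.07e-04). *Has2*, a hyaluronan synthase, was at 10.3, 0.671 and 1.06 CPM with TNF and held 0 to 4 counts without it (edgeR adjusted p = 0.0397), and replicate 1 held most of its signal. At 72 h *Vcan* was the 1 gene of the 10 called, beside 9.56% of all tested genes, at 46.5, 26.5 and 22.5 against 16.7, 14.97 and 14.7 CPM (1.04 ± 0.21, edgeR adjusted p = 0.00327).

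**Figure D5:**
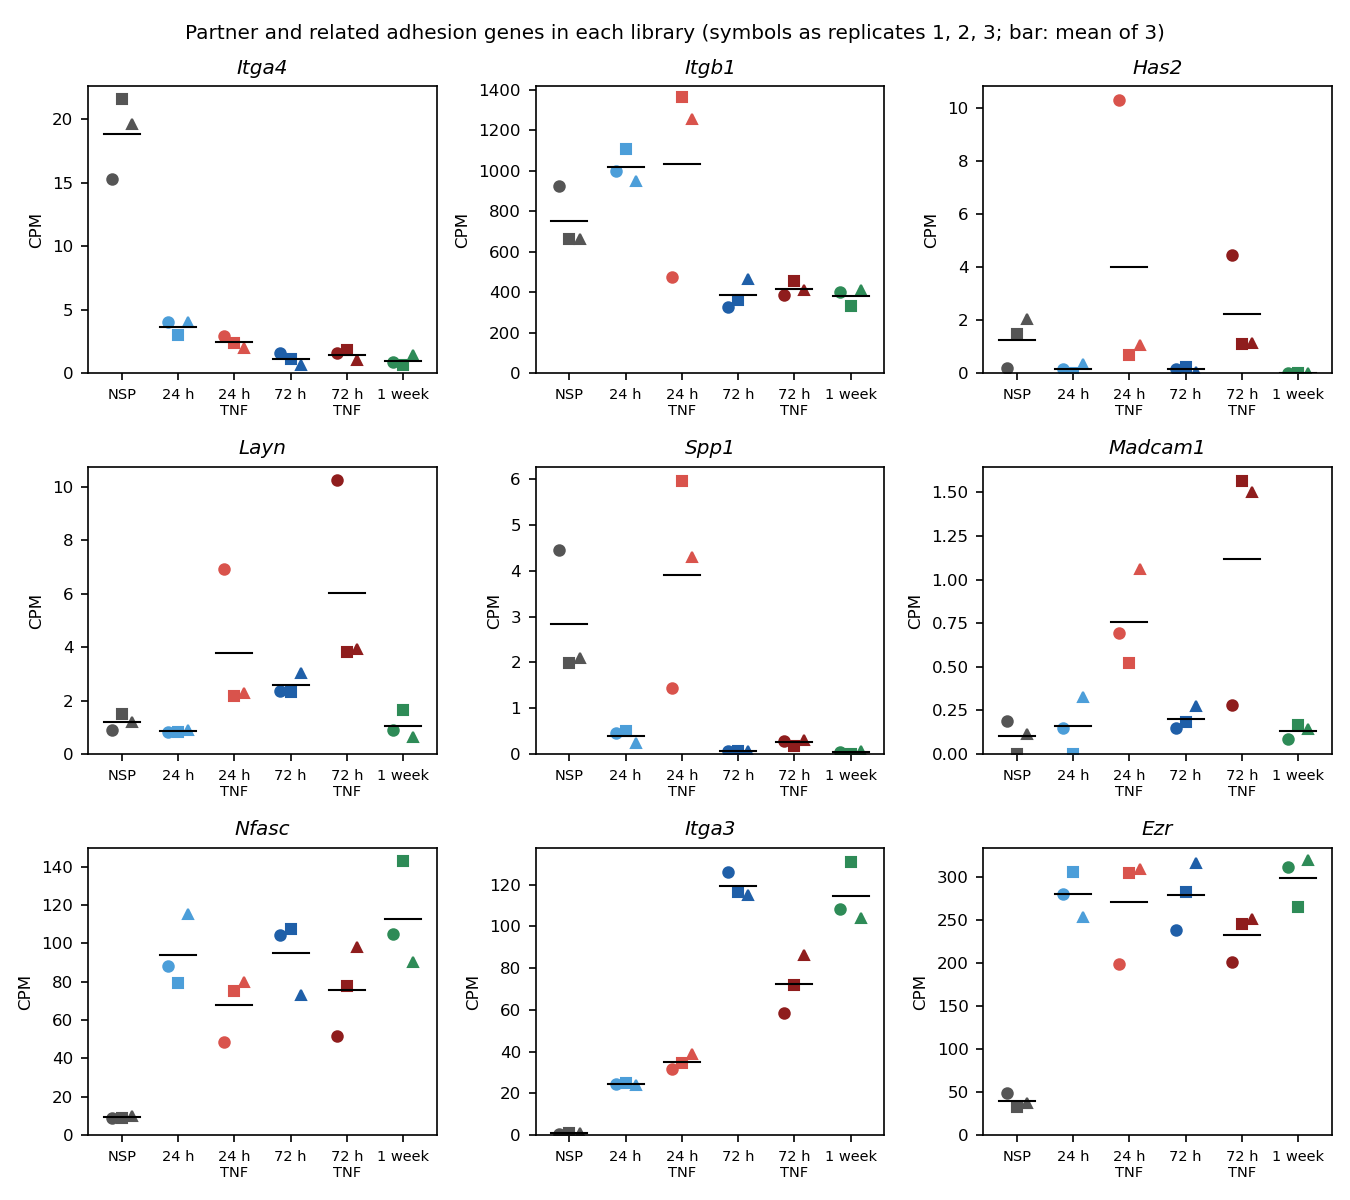
CPM in each library, by condition, of 9 partner and related genes, with circles, squares and triangles for replicates 1, 2 and 3 and bars for means of 3, each panel on its own linear axis from 0. *Itga4* is highest in NSPs, *Itga3*, *Nfasc* and *Ezr* are lowest there, and *Has2* and *Layn* are highest in the TNF libraries numbered 1.

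Relatives of the neural members are given beside them. Of 24 other immunoglobulin family adhesion genes, 21 were tested. At 24 h 6 were called above and 4 below their NSP level (27.2% and 25.5% of all tested genes). At 72 h these numbers were 11 and 5 (28.1% and 27.2%), and at 1 week 11 and 3 (29.6% and 29.1%). With TNF they were 9 and 2 at 24 h (28.2% and 26.3%) and 7 and 2 at 72 h (31.7% and 30.1%). *Nfasc*, an L1 family relative of *Nrcam* that is also found at nodes of Ranvier, was at 8.76, 8.95 and 9.79 CPM in NSPs and 88.0, 79.2 and 115 CPM at 24 h (3.36 ± 0.26, edgeR adjusted p = 9.95e-09). *Cadm3*, a synaptic adhesion gene, rose by 3.06 at 72 h (edgeR adjusted p = 6.33e-05). The enzymes that add polysialic acid to the *Ncam1* product moved apart, *St8sia2* rising by 3.03 and *St8sia4* falling by 2.05 at 72 h (edgeR adjusted p = 1.08e-05 and 2.53e-04). Of the 5 shedding and polysialylation enzyme genes, 3 were called higher and 2 lower at 72 h against NSPs (28.1% and 27.2% of all tested genes). With TNF, 1 of the 21 was called higher at 24 h, beside 2.18% of all tested genes, and this was *Cadm1* (0.54 ± 0.14, edgeR adjusted p = 0.0429). At 72 h, 2 were called higher and 5 lower, beside 9.56% of all tested genes called in either direction. *Chl1*, the L1 family relative of *L1cam*, was at 144, 104 and 95.2 CPM with TNF against 51.7, 53.4 and 53.4 CPM (1.11 ± 0.16, edgeR adjusted p = 1.43e-04), and *Cadm3* was at 1.18, 7.66 and 9.76 against 20.9, 24.5 and 20.4 CPM (-1.83 ± 0.48, adjusted p = 0.0208). *Cadm4* fell by 0.89 with TNF at 72 h (edgeR adjusted p = 0.00215).

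Around *Cdh2*, 6 of 11 other cadherin genes were tested, and 4 were called lower and 0 higher by edgeR at 72 h and at 1 week compared to NSPs, beside 27.2% and 29.1% of all tested genes called lower, with medians of -1.55 and -1.26 against 0.05 and 0.06 over all tested genes. *Cdh4*, retinal cadherin, fell by 1.80 at 72 h (edgeR adjusted p = 1.76e-05), and *Cdh6* was higher at 24 h, at 291, 279 and 310.3 CPM against 61.4, 42.8 and 39.2 CPM in NSPs (2.62 ± 0.46, edgeR adjusted p = 1.18e-04). Of 6 catenins, which tie cadherins to actin, 4 were called higher and 0 lower at 72 h by edgeR, beside 28.1% of all tested genes called higher. *Ctnna2* and *Ctnna1* rose by 1.52 and 1.27 (edgeR adjusted p = 3.24e-04 and 1.79e-07). Of the 6 cytoskeletal linkers, 1 was called higher and 1 lower at 24 h against NSPs (27.2% and 25.5% of all tested genes). At 72 h against NSPs these numbers were 1 and 3 (28.1% and 27.2%). *Ezr*, the ezrin that joins the *Cd44* product to actin, rose by 2.83 at 24 h (edgeR adjusted p = 1.73e-09), while *Msn* and *Nf2* fell by 0.73 each at 72 h (edgeR adjusted p = 0.00603 and 9.90e-05). TNF at 72 h gave 2 linkers called higher and 0 lower, beside 4.35% of all tested genes called higher. With TNF, *Cdh20* fell by 0.70 at 24 h (edgeR adjusted p = 0.0249) and *Cdh13* rose by 0.96 at 72 h (adjusted p = 7.58e-04), each the only cadherin called at its time. *Itga3*, an integrin subunit that binds laminin, rose from 0.508, 1.15 and 1.19 CPM in NSPs to 126, 116 and 115 CPM at 72 h without TNF and 58.5, 71.9 and 86.2 CPM with it. Of 13 other integrins tested, 5 were called higher and 5 lower from NSPs to 72 h (28.1% and 27.2% of all tested genes), and 1 was called higher and 3 lower with TNF at 72 h (9.56% in either direction). *Itga3* was the only gene of the adhesion lists called for the interaction of TNF and time (-1.24 ± 0.23, edgeR adjusted p = 0.019).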

How the data were processed

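RNA-sequencing of total RNA, depleted of ribosomal RNA with a stranded kit, was made from 18 libraries, 3 in each of 6 conditions, grouped by their labels. The authors deposited raw read counts per gene. Positions were taken from the GENCODE M21 annotation of GRCm38, which held 54809 of the 54838 gene IDs. Their notes name FastQC, Trim Galore, STAR, SAMtools and featureCounts, with mm10 as the build. Versions and the strand setting of counting are not given in the sources used here. The authors' own tests used DESeq2.

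Here the counts were filtered by filterByExpr, scaled by TMM and tested with edgeR 4.0.16 (glmQLFit and glmQLFTest, limma 3.58.1, R 4.3.3), with a mean per condition over all 18 libraries and Benjamini-Hochberg adjustment over 20067 genes. SE values are the fold change over the root of the F statistic. Total counts of 12509693 to 22549627 bound the precision, and a floor of 3 counts was used for values near 0, covering counting error only. The scripts were tested on simulated counts. The 9 members and the partner and marker lists were chosen with earlier results of these data known. Every member is named, with its 3 closest genes by Pearson's r. All integrins that bind *Vcam1* or *Icam1* and *Nfkbia* are named, and from each other pathway list at most the 4 genes with the largest change among those called in a comparison. Neighbouring and overlapping genes and single markers named beside a member were chosen after their values were seen.

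Replicate numbers come from the labels, except that the count column of 72 h replicate 3 carries the number 4 and was matched to it by condition and run index. Deviations from condition means correlated at 0.255 to 0.291 for same-numbered libraries of 24 h TNF and 72 h TNF, over 0.1 in all 3 pairs, but not in all pairs of the other comparisons. Alternatives were DESeq2 1.42.0, RLE scaling, other filters, a fold minimum, only the groups compared, a replicate block and leaving out each library. Promoters (RefSeq, GRCm38.p6) were searched as letters on both strands.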

Additional observations from a re-analysis of the deposited data

How the results depend on the processing

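The counts of members called in the comparisons of 24 h, 1 week and 24 h TNF with NSPs, of 1 week with 72 h and of the interaction stayed within 1.5 times under the alternatives run. With a change of at least 1 on the log2 scale also required, the count fell to 3 for 72 h against NSPs, 4 for 72 h TNF against NSPs, 1 for 72 h against 24 h and 1 for TNF at 72 h. With at least 10 counts in every library it was 1 for 72 h against 24 h and 0 for 72 h TNF against 24 h TNF, where *L1cam* was no longer tested. Without a filter it was 2 for 72 h TNF against 24 h TNF and 3 for TNF at 24 h, and with at least 5 counts in total 2 for TNF at 24 h. *Icam1* entered both of these fits and was called in neither. With only the groups compared it was 2 for TNF at 24 h and 1 at 72 h, and DESeq2 called 3 for TNF at 24 h. Leaving out 1 library at a time gave 1 to 2 for 72 h against 24 h, 1 to 3 for 72 h TNF against 24 h TNF, 1 to 2 for TNF at 24 h and 1 to 2 at 72 h. Without both TNF libraries numbered 1, chosen after seeing the values, it was 3 for 72 h TNF against 24 h TNF and 5 for TNF at 72 h. Over all genes and all these alternatives, the calls ranged from 360 to 1374 for TNF at 24 h, from 965 to 2922 for TNF at 72 h, from 610 to 2032 for 1 week against 72 h, from 828 to 3802 for 72 h TNF against 24 h TNF, from 24 to 554 for the interaction, from 2681 to 5538 for 72 h against 24 h, and against NSPs from 5774 to 10863 at 24 h, from 6481 to 11718 at 72 h, from 7020 to 12474 at 1 week, from 5993 to 11272 at 24 h with TNF and from 7488 to 13135 at 72 h with TNF.

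With the replicate number as a block, the counts of members called were 6, 6, 3, 7 and 7 against NSPs, 2 for 72 h against 24 h, 3 for 1 week against 72 h, 1 for 72 h TNF against 24 h TNF, 1 and 2 for TNF at 24 h and 72 h and 0 for the interaction, as without it. Over all genes the block gave 10436 calls for 24 h against NSPs, against 10576 without it, 1814 against 1919 for TNF at 72 h and 65 against 92 for the interaction. The count column taken as 72 h replicate 3 carries the number 4 in its name, so the block was also fitted with that library unpaired. It then gave 1 member for 72 h against 24 h, where *Ncam1* was lost, 1 for TNF at 72 h, where *Cd109* was lost, and 5 in place of 6 for 72 h against NSPs, where *Ncam1* was lost, and over all genes 3286 calls against 4970 for 72 h against 24 h, 617 against 1331 for 1 week against 72 h, 986 against 1919 for TNF at 72 h and 24 against 92 for the interaction. That library then had a term of its own and no longer counted toward the 72 h mean.

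Changes with TNF near 0 turned sign when libraries were left out. Leaving out 1 at a time, the 24 h change ranged from -0.23 to 0.34 for *Cd44*, from -0.11 to 0.11 for *Nrcam* and from -0.0591 to 0.21 for *Cdh2*. The 72 h change ranged from -0.78 to 0.17 for *Cd44*, from -0.30 to 0.19 for *Alcam*, from -0.20 to 0.40 for *Nrcam* and from -0.25 to 0.11 for *Cdh2*. Without both TNF libraries numbered 1, the 24 h change was -0.21 for *Cd44* and -0.0926 for *Nrcam*, and the 72 h change was 0.18 for *Alcam*, -0.21 for *Nrcam* and 0.10 for *Cdh2*. The cause was not tested. Of the alternative values for the members' called changes and for all their changes with TNF at the same time, 669 kept their direction and side of the threshold, 42 lost the call, 11 gained it and 15 turned sign. Calls gained by changes outside this set are not in this count. Low counts limited *Icam1* throughout, and *L1cam* outside 24 h.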
